A study of Mus musculus with 24 samples.

Results

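Cxcr2, a chemokine receptor of neutrophils, and 5 of its ligands, Cxcl1, Cxcl2, Cxcl3, Cxcl5 and Ppbp, were followed through the cells of Panc02 tumors under combined immunotherapy. The 6 genes were taken by symbol from the 32285 genes of the deposited count table. The ligands were read in tumor, stromal, macrophage, monocyte and mast cells, and the receptor in neutrophils, over all treatments and both cell preparations. Panc02 is a mouse pancreatic cancer cell line, grown here under the skin of wild-type male C57BL/6 mice that were 6–7 weeks old at implantation. Mice received Isotype Control antibodies, Anti-PD-1, Anti-CTLA-4, or both antibodies, each without or with PancVAX, a vaccine of Panc02 neoantigen peptides. By the methods of the study the vaccine also held AddaVax and a STING agonist, so that PancVAX here stands for peptides and adjuvants together. The peptides were given at 50 µg on days 12 and 19, Anti-PD-1 at 100 µg from day 12, and Anti-CTLA-4 at 100 µg on days 15 and 22, and the labels date the harvest to day 38. Tumors were pooled by treatment, and a pool below means 1 of the 8 treatments. Each treatment had 1 library of cells as they came from dissociation (whole tumor) and 1 library after a Percoll gradient that favors immune cells. The labels and methods do not state how many mice a pool holds, nor if both of its libraries came from the same mice, so that the tests below measure the spread between pools and not between mice. The preparations were sequenced as separate batches, and preparation and batch cannot be told apart.

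Cxcr2 is a G protein-coupled receptor that draws neutrophils from the bone marrow and blood into inflamed tissue. Its ligands are CXC chemokines that carry a glutamate-leucine-arginine motif before the first cysteines, and they are made by macrophages, fibroblasts, epithelial and tumor cells, platelets and neutrophils themselves. Most are early targets of NF-κB downstream of IL-1, TNF and IL-17, and their short-lived mRNAs are cleared by decay factors such as Zfp36 and Zc3h12a. In tumors the axis is known for the recruitment of neutrophils, and strong stimulation takes the receptor off the cell surface.

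The 5 ligands lie within 146.6 kb of mouse chromosome 5 (GRCm38.p6, the build that the processing notes call mm10), and Cxcr2 lies on chromosome 1. From start to end of the cluster the order was Cxcl5 (chr5:90759298-90761625), Ppbp (chr5:90768518-90770063), Cxcl3 (chr5:90786101-90788093), Cxcl1 (chr5:90891245-90893121) and Cxcl2 (chr5:90903899-90905938). Cxcr2 spans chr1:74153994-74161246. The promoter windows of 5 of the 6 genes were found in the RefSeq table, each given as the 250 bases before the transcription start on the plus strand. Promoters of Cxcl1, Cxcl2 and Cxcl3 are shown because each holds the letters GGGAATTTCCC (capitals), the longest stretch that the 3 share and an NF-κB type sequence.

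Cxcl1 (chr5:90890995-90891244): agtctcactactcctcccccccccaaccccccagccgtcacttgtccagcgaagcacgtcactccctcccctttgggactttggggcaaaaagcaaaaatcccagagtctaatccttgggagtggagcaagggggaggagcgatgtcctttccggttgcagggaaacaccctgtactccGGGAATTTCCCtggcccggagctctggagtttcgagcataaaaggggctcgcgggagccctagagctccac
Cxcl2 (chr5:90903649-90903898): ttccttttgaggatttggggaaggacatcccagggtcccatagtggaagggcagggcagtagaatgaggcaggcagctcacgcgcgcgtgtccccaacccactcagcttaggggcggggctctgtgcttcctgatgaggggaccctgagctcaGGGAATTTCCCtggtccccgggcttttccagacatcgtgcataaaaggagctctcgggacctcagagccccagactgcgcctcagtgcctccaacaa
Cxcl3 (chr5:90785851-90786100): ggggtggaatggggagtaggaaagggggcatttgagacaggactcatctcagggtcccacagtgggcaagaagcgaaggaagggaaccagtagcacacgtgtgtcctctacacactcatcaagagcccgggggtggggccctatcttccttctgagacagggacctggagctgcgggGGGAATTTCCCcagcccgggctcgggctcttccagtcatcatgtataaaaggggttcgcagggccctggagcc

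The match began 71 bases before the start in Cxcl1, 97 bases before it in Cxcl2 and 73 bases before it in Cxcl3. Since the letters were taken from these 3 promoters, their presence there is no finding. On either strand the same letters were in 14 of 32851 promoters of the table (0.0426%) and were not found in the windows of Cxcr2 (chr1:74153744-74153993) and Ppbp (chr5:90768268-90768517). These matches describe sequence, and binding was not measured.

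The 16 libraries held 77132398–176233225 unique molecular identifiers (UMIs, 1 per captured mRNA molecule) in 144994 barcodes. The filter of the study (200–3000 genes, 1000–10000 UMIs, under 10% mitochondrial UMIs, no hemoglobin) left 57340 cells, 1793–7412 per library. This filter bears unevenly on the 6 genes. It kept 69.2% of the 5422 deposited Cxcr2 UMIs, 55.9% of the 775418 Cxcl2 UMIs and 47.7% of the 1837 Ppbp UMIs, but 15.9% of 87941 Cxcl3 UMIs, 9.48% of 90322 Cxcl1 UMIs and 6.33% of 352033 Cxcl5 UMIs. Without the upper limits on genes and UMIs, 98.6% of Cxcl1 UMIs and 98.2% of Cxcl5 UMIs were retained. The tumor or epithelial cells then numbered 25485 in place of 4301 and stromal cells 1457 in place of 418, while neutrophils numbered 7443 in place of 7375. Several levels of Cxcl1 and Cxcl5 are therefore also given without the upper limits. Cells were placed in gates by at least 3 markers of 1 class that did not include the 6 genes. The neutrophil, macrophage and monocyte gates were led by genes of their own lists (S100a9, C1qa and Chil3). Since cells were chosen by these lists, that lead is no separate support for the gates. Cells that met both the tumor and the stromal list are called keratin and collagen cells (1409 cells, led by Dcn, Lum and Pdgfra of the stromal list). Of these cells 85.0%, and of the tumor or epithelial cells 45.1%, sat at the minimum of 3 markers. A gate is a rule on UMIs and not a sorted population, and levels are given as UMIs per 1000000 UMIs of the gate (CPM). Since 1 tag is counted per molecule from its 5′ end, no correction for transcript length was made. In the Percoll library of PancVAX + Anti-PD-1, 1867 cells met the lists of more than 1 class, the most in any library. Of all barcodes, 25109 (17.3%) had a sequence that occurred in more than 1 library, as did those of 4167 kept cells (7.27%).

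Cxcr2 was measured almost wholly in neutrophils. Of its UMIs in kept cells, 87.2% were in the neutrophil gate and 10.3% in cells that met the lists of several classes. The level in neutrophils was 275 ± 49.0 CPM (SD, n = 8 pools). B cells, next in order, were at 0.842 CPM, and neutrophils were above them in 8 of 8 pools (adjusted p = 0.0469, exact sign-flip permutation test over pools, adjusted over 60 pairs of neighboring gates, from a p of 0.0078, the smallest that 8 pools allow). Monocytes, stromal cells and keratin and collagen cells had no Cxcr2 UMI, and macrophages were at 0.393 CPM and T cells at 0.282 CPM. After thinning to 1000 UMIs per cell, 22.5% ± 2.81 (SD, n = 8 pools) of neutrophils held a Cxcr2 UMI (31.0% unthinned, at a median of 1478 UMIs). In T cells, which should lack the receptor, this share was 0.0238% (13 of 12966 cells unthinned, at a median of 3679 UMIs). Cxcr1, the other CXC receptor for such ligands, was at 4.70 CPM in neutrophils.

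Among neutrophils the receptor and Cxcl3 were lower in cells with Siglecf, a lectin gene that marks tumor-resident neutrophils in mouse models, than in cells with Retnlg, a gene of young neutrophils. The groups held 1899 cells with UMIs of Siglecf only and 1118 with UMIs of Retnlg only. In Isotype Control, Anti-PD-1, Anti-CTLA-4 and both antibodies, Cxcr2 in Retnlg cells was 525, 438, 439 and 293 CPM. With PancVAX added to each, in the same order, it was 469, 281, 389 and 459 CPM. In Siglecf cells the corresponding levels were 207, 276, 169 and 166 CPM without PancVAX, and 165, 177, 221 and 167 CPM with it. The ranges of the subsets did not overlap, although the lowest Retnlg pool (281 CPM) and the highest Siglecf pool (276 CPM) came close, and the receptor was lower in Siglecf cells in 8 of 8 pools. Without the upper limits on genes and UMIs the ranges overlapped (163–248 CPM in Siglecf and 220–369 CPM in Retnlg cells), with a log2 fold change of −0.95 (adjusted p = 1.9e-06), and the receptor was still lower in 8 of 8 pools. In the cells kept, the log2 fold change was −1.54 (SE 0.11, adjusted p = 1.7e-13, edgeR quasi-likelihood test with pool as a block). In this comparison 45.3% of the genes tested passed the threshold (adjusted p under 0.05 and a log2 fold change beyond 0.5), so that a call by itself says little about the receptor. After thinning, 16.7% ± 3.24 of Siglecf cells and 32.1% ± 4.88 of Retnlg cells held a Cxcr2 UMI (SD, n = 8 pools).

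Cxcl3 differed more than the receptor. Its level was 196 ± 87.4 CPM in Siglecf cells (range 83.2–366.2) and 1011 ± 460 CPM in Retnlg cells (range 477–1881), with no overlap over the 8 pools (SD, n = 8). The log2 fold change was −2.79 (SE 0.16, edgeR adjusted p = 7.3e-16). Cxcl2, in contrast, was high in both subsets, at 25118 ± 2948 CPM in Siglecf cells and 21102 ± 1769 CPM in Retnlg cells. It was the higher in Siglecf cells in 8 of 8 pools by CPM, yet its fitted log2 fold change was −0.24 with TMM scaling and 0.27 with scaling by library totals, so no direction is given for it. The median log2 fold change of all genes was 0.06 with TMM scaling and 0.57 by library totals, and with the latter Cxcr2 (−1.02) and Cxcl3 (−2.27) kept their direction. Cxcl1 was at 92.1 ± 26.2 CPM in Siglecf cells and 72.5 ± 90.9 CPM in Retnlg cells (log2 fold change −0.18, adjusted p = 0.64, edgeR).

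**Figure D1:**
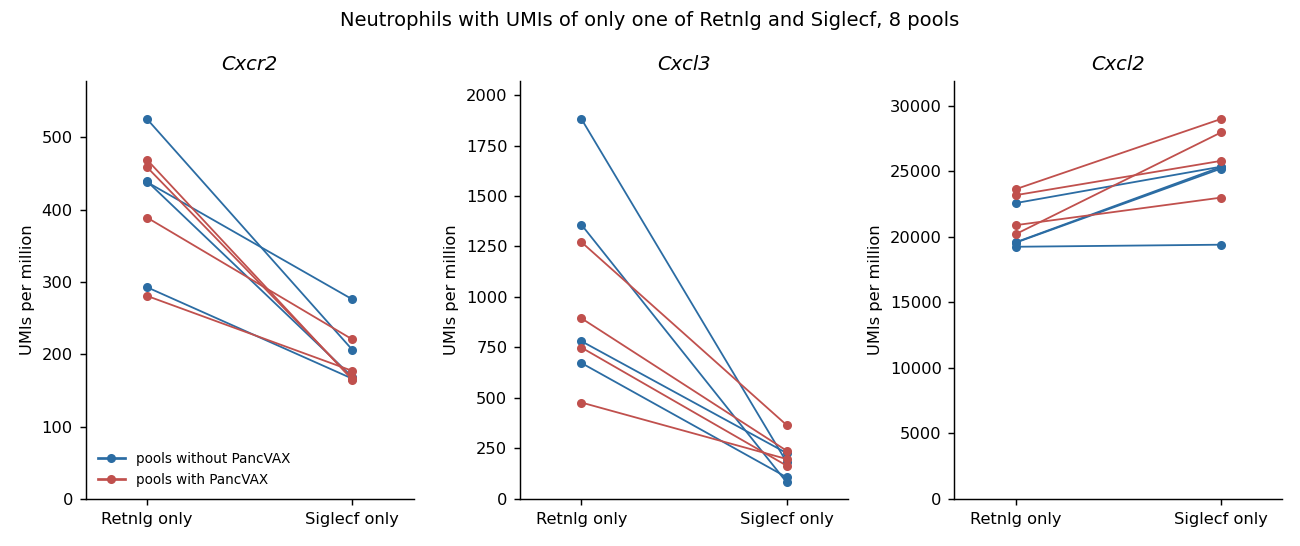
Levels of Cxcr2, Cxcl3 and Cxcl2 (y axis, CPM) in neutrophils with UMIs of Retnlg only or Siglecf only (x axis), with 1 line per pool, red with PancVAX and blue without. Lines of Cxcr2 and Cxcl3 fall in 8 of 8 pools, from means of 412 to 193 and of 1011 to 196, while those of Cxcl2 lie between 19234 and 28978.

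Of 40 other genes of the pathway, 28 could be tested between the subsets. Lower in Siglecf cells were 14, among them the formyl peptide receptor Fpr1 (−3.82), the selectin ligand Selplg (−2.05), the leukotriene receptor Ltb4r1 (−1.41), the complement receptor C5ar1 (−1.32), the G-CSF receptor Csf3r (−1.07), the NF-κB cofactor Nfkbiz (−1.37) and the mRNA decay factor Zc3h12a (−1.08). With scaling by library totals 8 genes were lower and 7 higher, with a median of 0.04, and the lower calls of Itgam, Fpr2, Cxcr4, Nfkb1, Prex1 and Nfkbia were lost. Higher were 5, namely the cytokine genes Tnf (1.27), Il1a (1.04) and Csf1 (1.09), the adhesion molecule Icam1 (0.80) and Grk6 (1.16), a kinase that desensitizes chemokine receptors (log2 fold changes, edgeR). The median of the 28 genes was −0.48, beside 0.06 over all genes. Csf3r and Retnlg are also markers of the neutrophil gate, so that Retnlg cells met 1 gate marker through the split itself. Whether this bears on the change of Csf3r was not tested. Scaling by library totals moved the calls over all genes from 1027 higher and 1058 lower to 2342 higher and 488 lower.

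The ligands were then compared between gates, as the plot of levels by gate shows.

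**Figure D2:**
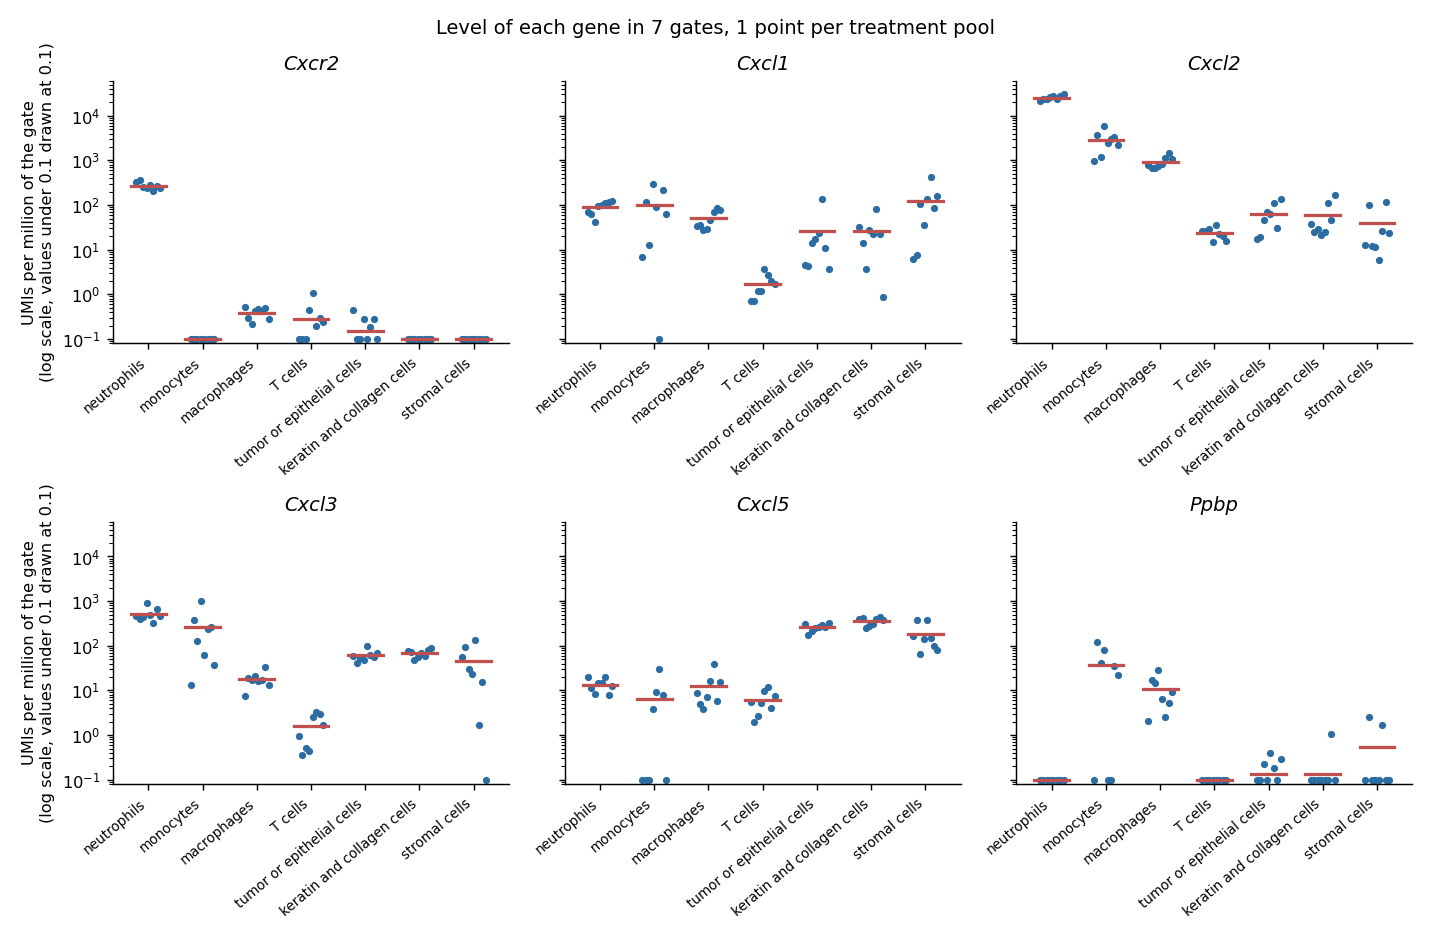
Level of each gene (y axis, CPM of the gate, log scale, values under 0.1 drawn at 0.1) in 7 gates, with 1 point per pool and a red bar at the mean of 8 pools. Cxcr2 and Cxcl2 are highest in neutrophils (means 275 and 25639), Cxcl5 in keratin and collagen cells (359), and Ppbp in monocytes (37.4), while the points of Cxcl1 in several gates overlap.

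Cxcl2, a chemokine of activated myeloid cells, was the most abundant member and was a neutrophil transcript in these tumors. Its level in neutrophils was lowest at 21875, with a median of 25402 and a highest value of 30032 CPM over the 8 pools. Monocytes were at 2862 ± 1593 CPM and macrophages at 931 ± 280 CPM (SD, n = 8), and dendritic cells followed at 68.5 CPM. Neutrophils were above monocytes, monocytes above macrophages, and macrophages above dendritic cells, each in 8 of 8 pools (adjusted p = 0.0469, exact sign-flip permutation test). Neutrophils held 72.8% of the Cxcl2 UMIs of kept cells and macrophages 13.1%, and without the upper limits these shares were 47.1% and 18.3%. A Cxcl2 UMI was found in 94.0% ± 1.35 of thinned neutrophils (95.2% unthinned), 22.6% ± 5.39 of thinned macrophages (33.4% unthinned, median of 3921 UMIs) and 1.56% ± 0.362 of thinned T cells (3.99% unthinned). Single neutrophils reached 406 Cxcl2 UMIs.

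The ratio of Cxcl2 to neutrophil genes differed between gates. For each UMI of S100a8 and S100a9, which are among the most abundant neutrophil mRNAs, there were 0.616 Cxcl2 UMIs in neutrophils and 0.934 in T cells, but 50.7 in macrophages and 183 in monocytes. The 10 neutrophil markers were all detected in macrophages, at a sum of 110–263 CPM in whole tumor and 145–362 CPM in Percoll libraries, against 48335–78116 CPM in neutrophils. T cells held a median of 59.2 CPM of these markers in whole tumor and 49.9 CPM in Percoll libraries. In tumor or epithelial cells of whole-tumor libraries 7 of the 10 were detected, at 2.53–63.2 CPM, and Mmp9, Stfa2l1 and Mmp8 were at 0.

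Cxcl3, a close relative of Cxcl1 and Cxcl2 made by activated cells, was at 521 ± 184 CPM in neutrophils (lowest 323, median 468, highest 902). Monocytes ranged from 13.5 to 1014 CPM, and 49 of 522 monocytes had a Cxcl3 UMI. Neutrophils were above monocytes in 7 of 8 pools, which did not pass the threshold (adjusted p = 0.195, exact sign-flip permutation test). Keratin and collagen cells (68.9 ± 13.1 CPM), tumor or epithelial cells (61.3 ± 17.5 CPM) and stromal cells (44.8 ± 48.4 CPM) followed, and none of these neighbors differed beyond their spread. Neutrophils held 46.6% of the Cxcl3 UMIs with the upper limits and 7.84% without them, where keratin and collagen cells held 31.6% and tumor or epithelial cells 27.0%.

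Cxcl1, an inflammatory chemokine of stromal and myeloid cells, was spread over many gates. Stromal cells were at 120 ± 137 CPM, monocytes at 100.2 ± 107 CPM, neutrophils at 90.2 ± 28.6 CPM and macrophages at 51.3 ± 23.9 CPM (SD, n = 8 pools). Of these neighbors only neutrophils over macrophages held in 8 of 8 pools (adjusted p = 0.0469, exact sign-flip permutation test), and the first 3 gates could not be ranked (adjusted p = 1). Stromal cells without the upper limits were at 409 ± 295 CPM and were then the highest gate in 8 of 8 pools (adjusted p = 0.0426, same test). Macrophages held the most Cxcl1 UMIs among kept cells (36.1%), and tumor or epithelial cells held the most without the upper limits (31.1%, with 20.7% in keratin and collagen cells and 9.01% in macrophages). Few cells carried the transcript: 843 of 13712 macrophages had a Cxcl1 UMI, and the 1% of macrophages with the most held 55.2% of it. Of the macrophages with Cxcl1, 79.3% also had Cxcl2 after thinning, beside 22.6% of all macrophages.

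Cxcl5, a chemokine of epithelial and tumor cells, was highest in cells with keratin or collagen markers. Keratin and collagen cells were at 359 ± 71.2 CPM (247–436), tumor or epithelial cells at 262 ± 47.7 CPM (177–319) and stromal cells at 184 ± 127 CPM (66.4–386.6) over 8 pools. The first was above the second in 8 of 8 pools (adjusted p = 0.0469, exact sign-flip permutation test), a difference that was lost when gates needed 1 more marker (adjusted p = 1), and the second was above the third in 6 of 8 (adjusted p = 0.677). The levels without the upper limits were 321 ± 51.9 CPM in keratin and collagen cells, 206 ± 108 CPM in stromal cells and 172 ± 24.4 CPM in tumor or epithelial cells (SD, n = 8). Stromal cells were then second in order, and the first gate was above them in 7 of 8 pools, which did not pass (adjusted p = 0.125, exact sign-flip permutation test). Stromal cells were above neutrophils (13.6 ± 4.54 CPM) in 8 of 8 pools (adjusted p = 0.0469). Macrophages were at 12.7 CPM and T cells at 6.11 CPM. After thinning, a Cxcl5 UMI was found in 22.4% ± 2.81 of keratin and collagen cells, 16.8% ± 3.51 of tumor or epithelial cells and 0.628% of T cells (54.4%, 41.8% and 1.98% unthinned, at medians of 7718, 6514 and 3679 UMIs). Tumor cells with Cxcl3 had Cxcl5 in 38.4% of cases, beside 17.6% of all tumor cells. The 41 mast cells held 19 Cxcl5 UMIs (146 CPM, 95% exact Poisson interval 88.1–228), and 1 pool alone had the 10 mast cells needed for a value by pool (PancVAX + Anti-PD-1, 207 CPM). In mast cells 4 of the 9 tumor or epithelial markers were detected, at a sum of 1455 CPM beside 2999 CPM in the tumor or epithelial gate and 148 CPM in T cells, and 3 of the 9 stromal markers, at 423 CPM. Their part in the Cxcl5 level was not tested.

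Ppbp, which encodes a chemokine stored in platelets, was rare. It was at 37.4 ± 43.4 CPM in monocytes and 10.7 ± 8.93 CPM in macrophages (monocytes higher in 5 of 8 pools, adjusted p = 0.288, exact sign-flip permutation test). Macrophages held 79.0% of its UMIs and were above stromal cells (0.541 CPM) in 8 of 8 pools (adjusted p = 0.0469). Of 692 Ppbp UMIs in macrophages, the cell with the most held 68, and 132 of 13712 macrophages had any. Of 89 Ppbp UMIs in monocytes, the cell with the most held 21, and 11 of 522 monocytes had any. A Ppbp UMI was found in 0 of 7375 neutrophils, which allows a share of up to 0.0407% of cells with a detected UMI and does not bound the share that express the gene. No cell met the platelet list, and the platelet chemokine Pf4 was at 609 CPM in macrophages. Of the 8 platelet markers 1 was at 0 in macrophages, where the list summed to 44.7 CPM. That sum was 84.7 CPM in mast cells, 17.7 CPM in tumor or epithelial cells, 3.16 CPM in monocytes and 1.01 CPM in T cells. The part of platelets in the Ppbp level was not tested.

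Macrophages prepared on Percoll showed higher levels of Cxcl1, Cxcl2 and Cxcl3 than those of whole tumor. In the order given above for the pools, Cxcl1 in whole-tumor macrophages was 22.9, 12.9, 10.3 and 13.9 CPM without PancVAX and 41.6, 36.8, 46.7 and 48.0 CPM with it. In Percoll macrophages it was 61.3, 65.2, 48.9 and 41.1 CPM without PancVAX and 51.6, 110.4, 172.7 and 107.5 CPM with it. The gene was higher with Percoll in 8 of 8 pools, and the ranges overlapped between 41.1 and 48.0 CPM. The log2 fold change was 1.58 (SE 0.16, adjusted p = 1.5e-05, edgeR with pool as a block). Cxcl2 ranged over 298–969 CPM (median 501) in whole-tumor and 987–2541 CPM (median 1350) in Percoll macrophages, without overlap (log2 fold change 1.505, SE 0.0977, adjusted p = 1.2e-07, 8 of 8 pools). Cxcl3 rose from a median of 10.6 to 25.2 CPM, with overlapping ranges (log2 fold change 1.28, SE 0.20, adjusted p = 0.00072, 7 of 8 pools). These 3 of the 5 members tested passed, beside 3.57% of all genes. Cxcl5 (0.93, adjusted p = 0.12) and Ppbp (−0.31, adjusted p = 0.68) did not.

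Other genes of the pathway rose in the same macrophages. Of 30 pathway genes tested, 4 rose and 0 fell, namely Tnf (1.33), the NF-κB inhibitor Nfkbia (1.06), the NF-κB regulator Tnfaip3 (0.64) and Il1a (0.54). Nfkbia also rose with Percoll in tumor or epithelial cells (0.76), keratin and collagen cells (1.01), monocytes (0.65) and endothelial cells (1.40), as log2 fold changes that passed the threshold (0.941% of genes passed in endothelial cells). In the same 4 gates Zc3h12a rose in tumor or epithelial cells (0.63), Tnfaip3 (0.74) and Nfkbiz (0.53) rose in keratin and collagen cells, and Il1b fell in tumor or epithelial cells (−0.89) and monocytes (−0.62). The neutrophil markers summed to a median of 163 CPM in whole-tumor and 212 CPM in Percoll macrophages, and their part in the difference was not tested. Handling of the cells and sequencing batch cannot be told apart from preparation.

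In neutrophils the receptor was lower with Percoll, and Cxcl3 and Cxcl1 were higher. Cxcr2 in whole tumor was 355, 451, 320 and 323 CPM without PancVAX and 311, 280, 309 and 305 CPM with it. In Percoll it was 292, 325, 226 and 204 CPM without PancVAX and 262, 163, 228 and 203 CPM with it. It was lower with Percoll in 8 of 8 pools, and the ranges overlapped. The log2 fold change of −0.49 (SE 0.07, edgeR adjusted p = 3.4e-05) stayed just under the size threshold of 0.5. Cxcl3 (0.56, SE 0.11, adjusted p = 0.00055) and Cxcl1 (0.59, SE 0.21, adjusted p = 0.043) passed in neutrophils, each higher in 7 of 8 pools, beside 12.4% of all genes. Cxcl2, at 16188–23215 CPM in whole tumor and 23599–34067 CPM in Percoll, did not overlap, and its log2 fold change stayed under the size threshold (0.46, SE 0.07, adjusted p = 7.1e-05, 8 of 8 pools). The call for Cxcl1 was lost when any of 5 pools was left out, and that for Cxcl3 without PancVAX + Anti-CTLA-4 (0.43) or PancVAX + Anti-PD-1 + Anti-CTLA-4 (0.50). Cxcl5 was higher in 4 pools and lower in 4 (−0.18, adjusted p = 0.75).

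In Siglecf neutrophils Cxcr2 was lower with Percoll in 8 of 8 pools (log2 fold change −0.75, SE 0.12, adjusted p = 2.9e-05, where 11.8% of genes passed). In Retnlg cells it was lower in 5 of 8 pools (−0.23, SE 0.15, adjusted p = 0.36, where 7.83% of genes passed). The difference between the subsets was −0.55 (SE 0.20) and did not pass (adjusted p = 0.42, edgeR interaction test, where 0.248% of genes passed), so that the effects are not shown to differ. Siglecf cells were 37.7–75.7% of the split neutrophils in whole tumor and 50.8–76.4% in Percoll. Of 30 pathway genes in all neutrophils, 4 rose with Percoll (Nfkb1 0.83, Tnf 0.83, C5ar1 0.63 and Fpr1 0.54) and 2 fell (the decay factor Zfp36, −1.23, and Il1b, −0.91). Over all genes 847 of 6806 passed in that comparison.

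Outside these gates, Cxcl5 in tumor or epithelial cells rose from 122–284 CPM (median 228) to 232–473 CPM (median 296), in 8 of 8 pools but with overlap. Its log2 fold change was 0.53 (SE 0.08, adjusted p = 0.00016, where 2.04% of genes passed), and it lay under the size threshold when Isotype Control, Anti-PD-1 or Anti-CTLA-4 was left out (0.47–0.50). Cxcl1 rose in keratin and collagen cells, from a median of 0.559 to 38.9 CPM (log2 fold change 2.09, SE 0.31, adjusted p = 5.2e-05, 8 of 8 pools, where 2.08% of genes passed). Without the upper limits that change was 0.47, where 4.6% of genes passed. Cxcl1 also rose in monocytes, where most whole-tumor libraries had none (median 0 CPM) and the Percoll median was 149 CPM (3.51, SE 0.47, adjusted p = 0.00023, higher in 6 of 8 pools, where 2.05% of genes passed). This rests on few cells, as 25 of 522 monocytes had a Cxcl1 UMI and the cell with the most held 50 of 247. Stromal cells could be compared in 6 pools, and neither Cxcl5 (−0.39, adjusted p = 0.92, lower with Percoll in 6 of 6) nor Cxcl1 (1.56, adjusted p = 0.77) passed there (0.0259% of genes did).

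**Figure D3:**
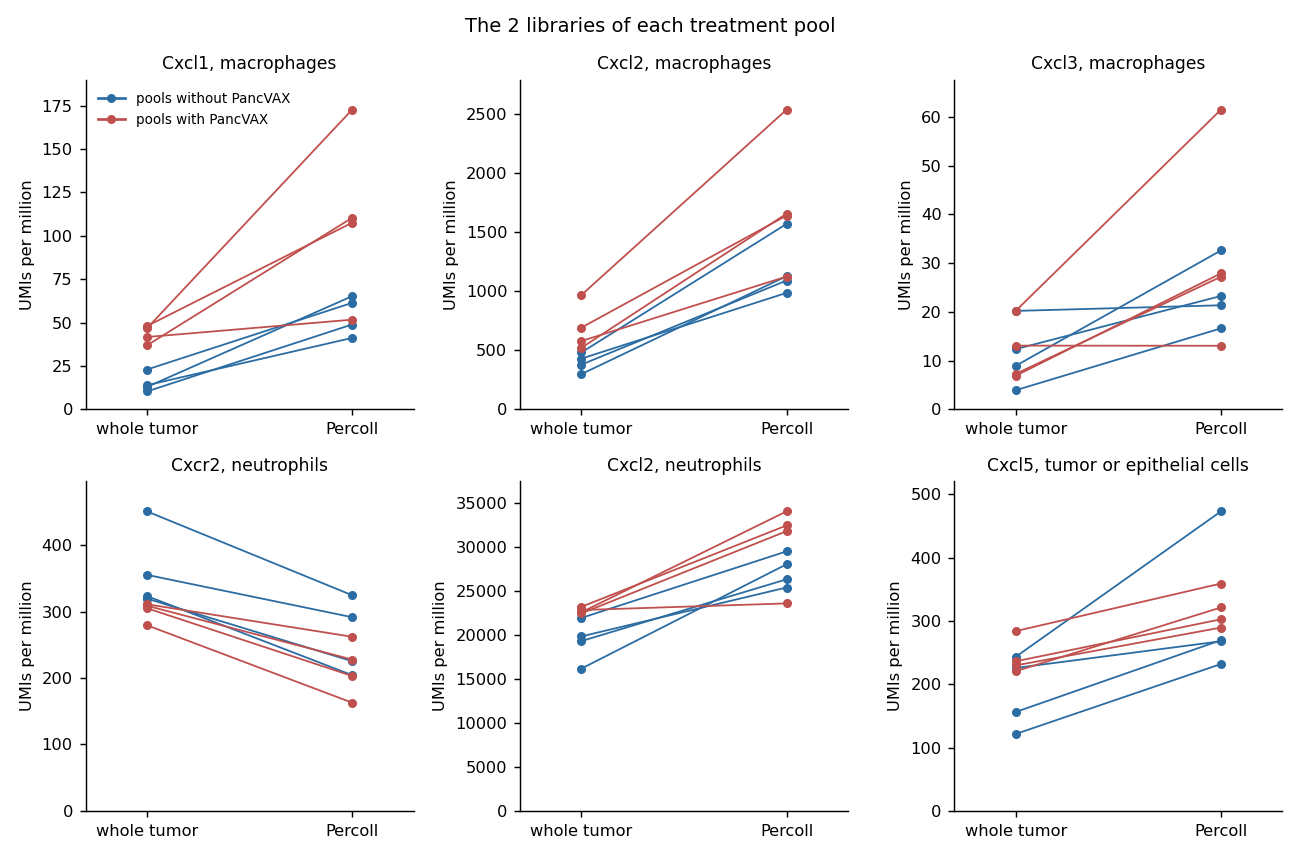
Levels (y axis, CPM) in the whole-tumor and the Percoll library (x axis) of each pool, with 1 line per pool, red with PancVAX and blue without. Cxcl1 and Cxcl2 in macrophages, Cxcl2 in neutrophils and Cxcl5 in tumor or epithelial cells are higher with Percoll in 8 of 8 pools, Cxcl3 in macrophages in 7 of 8, and Cxcr2 in neutrophils is lower in 8 of 8.

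The design asks whether the vaccine or either antibody moved the axis, each tested over 4 pools with it against 4 without, on UMIs summed over both libraries of a pool. In macrophages, Cxcl1 was 34.0 CPM in Isotype Control, 35.9 in Anti-PD-1, 28.3 in Anti-CTLA-4 and 29.0 with both antibodies. With PancVAX added it was 46.1, 71.7, 86.9 and 78.1 CPM in the same order. All 4 pools with PancVAX were above all 4 without, while without the upper limits the groups overlapped (35.4–108.8 with and 30.0–46.9 CPM without PancVAX). The log2 fold change was 1.09 (SE 0.16, adjusted p = 0.018, edgeR), and 1.04% of genes passed in this comparison. This was the 1 call of a member over the tumor, stromal, myeloid and endothelial gates and the 3 agents. With PancVAX 0.113% of genes passed in monocytes. For Anti-PD-1, the share of all genes that passed was 0.00928% in tumor or epithelial cells, 0.033% in keratin and collagen cells, 1.27% in stromal cells, 0.037% in endothelial cells and 0.148% in neutrophils. For Anti-CTLA-4 it was 0.0186% in tumor or epithelial cells, 0.0212% in stromal cells, 0.0452% in monocytes and 0.0123% in neutrophils, and in macrophages 0 genes passed for either antibody by edgeR (692 and 780 at an unadjusted p under 0.05, and 5 and 8 by DESeq2, for Anti-PD-1 and Anti-CTLA-4).

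By preparation, the effect had the same direction. In whole-tumor macrophages Cxcl1 spanned 10.3–22.9 CPM without PancVAX and 36.8–48.0 CPM with it, without overlap (log2 fold change 1.46, adjusted p = 0.011). In Percoll macrophages it spanned 41.1–65.2 and 51.6–172.7 CPM, with overlap (0.98, adjusted p = 0.26). The difference between the preparations in this effect was −0.55 (SE 0.30, adjusted p = 0.83, edgeR interaction test), so that the effects are not shown to differ. Without the upper limits on genes and UMIs the change was of like size and did not pass (1.04, adjusted p = 0.34, where 0.0231% of genes passed). It also did not pass without Anti-CTLA-4 (1.01, adjusted p = 0.063) or without Anti-PD-1 + Anti-CTLA-4 (0.94, adjusted p = 0.060), and without PancVAX + Anti-PD-1, the pool of the library with most mixed cells, it was 1.07 (adjusted p = 0.047).

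Other ligands in macrophages did not pass. Cxcl2 was 795, 693, 687 and 738 CPM without PancVAX and 823, 1143, 1471 and 1096 CPM with it. These groups did not overlap, and the log2 fold change of 0.56 (SE 0.13) had an adjusted p of 0.065 (edgeR). They overlapped without the upper limits (658–1422 with and 563–719 CPM without PancVAX). Cxcl5 (1.39, adjusted p = 0.060), which was −0.06 without the upper limits, Ppbp (−1.40, adjusted p = 0.11) and Cxcl3 (0.24, adjusted p = 0.74) did not pass either. Of 31 pathway genes, Nfkbia was called (0.58, SE 0.09, adjusted p = 0.018) and no other. Outside T cells, further pathway calls by treatment were Nfkbia with PancVAX in endothelial cells (1.28) and with Anti-PD-1 in keratin and collagen cells (0.68), Pf4 with Anti-CTLA-4 in monocytes (2.41) and Nfkbiz with PancVAX in Siglecf neutrophils (0.55). The share of neutrophils was 9.93–15.9% of kept cells in whole-tumor libraries with PancVAX and 5.56–11.7% in those without, and in Percoll libraries it was 8.32–23.1% and 10.0–19.0%. In whole-tumor macrophages the neutrophil markers summed to 160–263 CPM with PancVAX and 110–166 CPM without it, with overlap. In Percoll macrophages the sums were 220–362 and 145–203 CPM, without overlap. The part of these markers' source in the changes of Cxcl1 and Cxcl2 in macrophages was not tested.

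In kept neutrophils, stromal, endothelial and tumor or epithelial cells, Cxcl1 did not pass with PancVAX. Few genes did: 0 of 10775 passed in tumor or epithelial cells and 0 of 4709 in stromal cells by edgeR (1169 and 324 at an unadjusted p under 0.05, and 5 and 3 by DESeq2), and 0.148% in endothelial cells. In neutrophils it was 70.4, 63.2, 42.4 and 95.6 CPM without PancVAX and 98.6, 110.3, 120.2 and 120.5 CPM with it. The groups did not overlap, although the nearest pools were 3 CPM apart, and the log2 fold change was 0.65 (SE 0.15, adjusted p = 0.13, edgeR; 0.197% of genes passed). In stromal cells it was 6.32, 7.82, 105.7 and 35.3 CPM without PancVAX and 137, 427, 84.5 and 160 CPM with it, with overlap (2.18, SE 0.75, adjusted p = 0.70). Without the upper limits the stromal levels were 191, 217, 160 and 272 CPM against 579, 286, 1026 and 541 CPM, which did not overlap (1.40, SE 0.30, adjusted p = 0.26, where 0.00871% of genes passed). Endothelial cells, with 220 kept cells, gave 3.93 (SE 0.96, adjusted p = 0.20). Without the upper limits they numbered 573 and gave 1.89 (SE 0.37, edgeR adjusted p = 0.045), a call where 0.333% of genes passed. The endothelial levels were then 6.95–22.4 CPM without and 5.98–77.9 CPM with PancVAX, with overlap. In tumor or epithelial cells the change in Cxcl1 was 1.14 (SE 0.77, adjusted p = 0.63), with 1 pool far above the others. Its levels there were 4.37–17.7 CPM without and 3.72–133.5 CPM with PancVAX, and 24.4–42.5 and 22.4–128.6 CPM without the upper limits (0.86, adjusted p = 0.35).

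**Figure D4:**
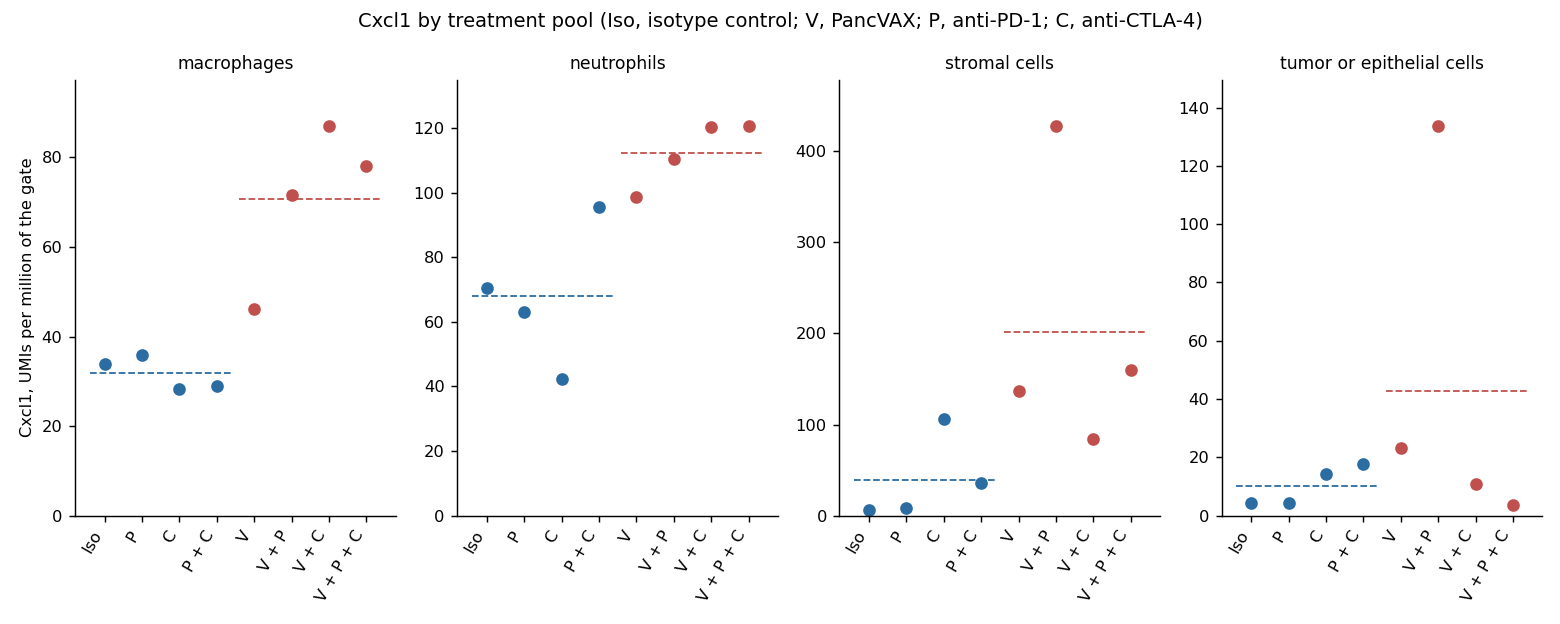
Cxcl1 (y axis, CPM of the gate) in macrophages, neutrophils, stromal cells and tumor or epithelial cells by pool (x axis), blue without and red with PancVAX, with dashed lines at the mean of each 4 pools. In macrophages the red points (46.1–86.9) lie above the blue (28.3–35.9), in neutrophils the groups are close to touching, and in tumor or epithelial cells 1 pool (133.5) sets the mean.

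No treatment call was made for the receptor. Cxcr2 in neutrophils was 325, 363, 258.5 and 245 CPM without PancVAX and 282, 211, 272 and 239 CPM with it, and the groups overlapped. The log2 fold change was −0.29 (SE 0.13, adjusted p = 0.67, edgeR) for PancVAX, −0.13 (SE 0.13) for Anti-PD-1 and −0.15 (SE 0.13) for Anti-CTLA-4. Cxcl2 in neutrophils changed by 0.13 (SE 0.11) and Cxcl3 by −0.24 (SE 0.18) with PancVAX. In whole tumor, Siglecf cells were 60.6–75.7% of the split neutrophils with PancVAX and 37.7–59.7% without it. In Percoll they were 59.5–76.4% and 50.8–71.1%. The part of this mix in the changes over all neutrophils was not tested. Cxcl5 in tumor or epithelial cells, at 177–308 CPM without and 261–319 CPM with PancVAX, changed by 0.21 (SE 0.15, adjusted p = 0.64), and without the upper limits it was at 133–181 and 164–208 CPM (0.16, adjusted p = 0.53). For the antibodies, 1 call appeared only when neutrophils were split: Cxcl3 in Siglecf cells was higher with Anti-CTLA-4 (0.89, SE 0.16, adjusted p = 0.044, where 0.0611% of genes passed). Its levels there were 227, 183, 366 and 239 CPM with Anti-CTLA-4 and 83.2, 107.6, 165 and 198 CPM without it, with overlap. In Retnlg cells no member was called for PancVAX (0.328% of genes passed) or Anti-PD-1 (0.401%), and the change of Cxcl3 with Anti-CTLA-4 was 0.71 (SE 0.23, adjusted p = 0.99), and the difference between the subsets was not tested.

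T cells, which are not a known source of these ligands, held low levels of them. With PancVAX, Cxcl1 (1.23, adjusted p = 0.036), Cxcl3 (2.16, adjusted p = 0.0027) and Cxcl5 (1.02, adjusted p = 0.047) passed in T cells by edgeR, where 9.54% of genes passed. With 1 pool left out, the call held in 8 of 8 fits for Cxcl3, in 1 of 8 for Cxcl1 and in 2 of 8 for Cxcl5. Their levels there were 1.75 ± 1.07, 1.58 ± 1.20 and 6.11 ± 3.52 CPM (SD, n = 8 pools). Cxcl1 in T cells was 0.701–1.19 CPM without and 1.67–3.79 CPM with PancVAX, while in macrophages the group means were 31.8 and 70.7 CPM. This separation in T cells was lost without the upper limits, where Cxcl1 was 2.13–5.50 CPM without and 1.27–10.6 CPM with PancVAX, and Cxcl3 2.47–8.31 and 3.76–7.09 CPM. Whether the T cell and macrophage values share a source was not tested.

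Whole-tumor libraries with more neutrophils had more Cxcl2 in their other cells. Over the 8 libraries the neutrophil share was 5.56–15.9% (median 10.8%). Against Cxcl2 in all cells outside the neutrophil gate, Pearson's r was 0.954 (adjusted p = 0.00012) and Spearman's rho 1 (adjusted p = 0.00025), by exact permutation tests over the libraries, adjusted over 5 ligands. Without the 2 libraries farthest from the median, r was 0.975. Both values of a point come from 1 library, and the cells outside the gate include mixed cells that also met the neutrophil list. Over cells placed in the other gates, without mixed cells, r was 0.915 and rho 0.905 (adjusted permutation p = 0.0024 and 0.018). In macrophages alone r was 0.913 (adjusted permutation p = 0.0060) and rho 0.929, and without the 2 farthest libraries r was 0.765. In T cells alone r was 0.340 (adjusted permutation p = 0.60). By vaccine status there were 4 libraries each, for which no r is given. With PancVAX, shares of 9.93, 12.3, 12.8 and 15.9% went with 374, 445, 465 and 710 CPM of Cxcl2 outside the neutrophil gate. Without it, shares of 5.56, 7.86, 9.38 and 11.7% went with 226, 296, 335 and 394 CPM. With a rho of 1 over all 8 libraries the order within each group was fixed, so that the split tests nothing further. The Percoll libraries gave r of 0.915 (adjusted permutation p = 0.0061), and without the upper limits the whole-tumor libraries gave 0.764 (adjusted permutation p = 0.070).

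The other ligands did not pass in the same libraries. For Cxcl1 r was 0.726 and rho 0.786 (adjusted permutation p = 0.10 and 0.070), for Cxcl3 0.412 and 0.333 (0.39 and 0.43), for Cxcl5 −0.194 and −0.333 (0.61 and 0.43), and for Ppbp −0.684 and −0.643 (0.10 and 0.16). With a 500 UMI minimum Cxcl1 passed (0.858 and 0.833, adjusted permutation p = 0.018 and 0.038), and Ppbp passed by r alone (−0.759 and −0.571, 0.047 and 0.25). Over cells placed in the other gates Cxcl1 passed by rho alone (0.728 and 0.881, 0.10 and 0.018).

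**Figure D5:**
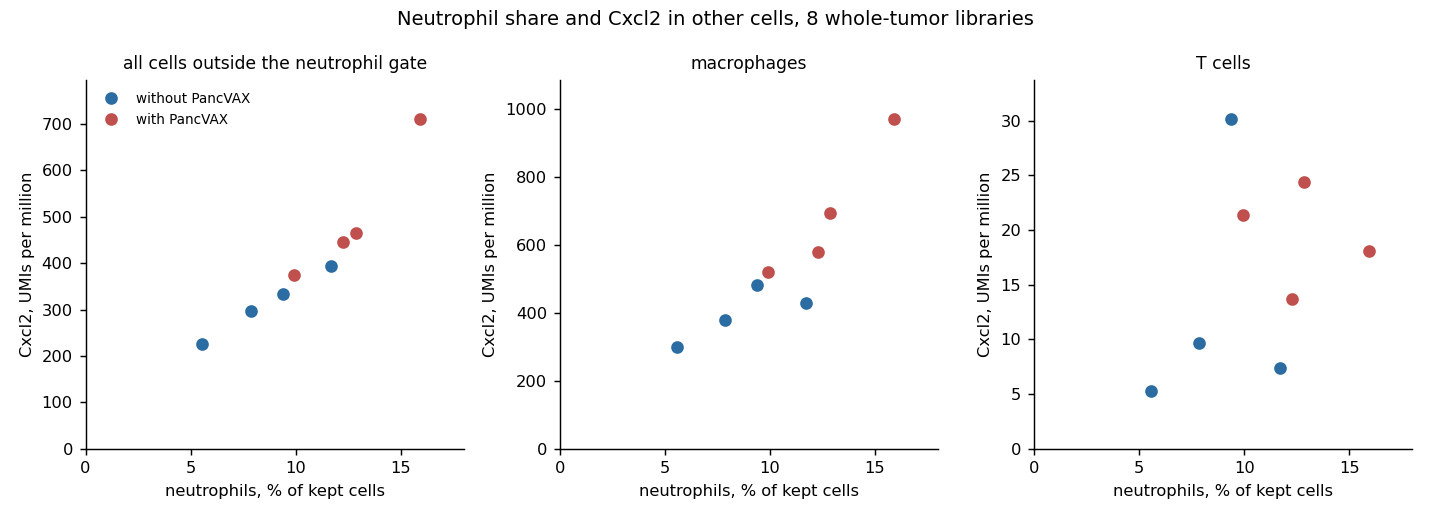
Neutrophils as a percentage of kept cells (x axis) against Cxcl2 (y axis, CPM) in all cells outside the neutrophil gate, in macrophages and in T cells, with 1 point per whole-tumor library, red with PancVAX and blue without. Points rise from left to right in the first (r of 0.954) and second panel (0.913) and scatter in T cells (0.340).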

How the data were processed

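The data are 10x 5′ single-cell libraries of Panc02 tumors, 1 whole-tumor and 1 Percoll library for each of 8 treatment pools. The authors deposited counts of UMIs per gene and barcode, made with Cell Ranger 4.0.0 on mm10 and read with Seurat per the processing notes. The T cell receptor contigs were not used here. Cells were kept by the limits of the study (200–3000 genes, 1000–10000 UMIs, under 10% mitochondrial UMIs, no hemoglobin UMI), which left 57340 of 144994 barcodes. Gates needed at least 3 markers of 1 list, with every other class at most 0.5 of that share, and at least 10 cells per pool. The gate rule and the keratin and collagen gate were set after the data were seen, no doublet caller was run, and cells of several classes (6517 mixed cells) entered no gate. The 6 genes were kept out of all lists. The members, the pathway list and the tests were chosen with earlier results of these data known, and the named genes are the 6 members, genes of the pathway list that were called or describe a member, and the genes most like each member over gates and pools (5 for Cxcr2 and 3 for each ligand). Among pathway genes, 1 is not reported here, and calls in T cells and with Percoll in neutrophil subsets are not listed.

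UMI counts were summed by gate and pool (or library) and tested with the edgeR 4.0.16 quasi-likelihood test in R 4.3.3 across all genes that passed its low-count filter. The models held a term for each of the vaccine and the 2 antibodies over 8 pools, or Percoll, or Siglecf, with the pool as a block. The pool pairs libraries by treatment, since both libraries of a pool have the same treatment label. The labels do not say if the mice were shared. Adjusted p-values are Benjamini-Hochberg values over all genes of a fit, and a call needed an adjusted p under 0.05 and a log2 fold change beyond 0.5. Gates were ordered by two-sided exact sign-flip tests over pools, and correlations were tested by two-sided exact permutation, with scipy 1.17.1. Shares of cells were thinned to 1000 UMIs, and cells were not used as replicates. Count intervals and limits (3 counts, 95% exact Poisson) cover counting error only. Fits were tested on simulated data. Promoters come from RefSeq on GRCm38.p6. DESeq2 1.42.0, other filters, scalings, preparations and leaving out each pool were tried as alternatives.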

Additional observations from a re-analysis of the deposited data

Results flagged for a closer look

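Of 72 groups of 4 or 8 values of the members in the main gates, 13 had a highest sample far from the others by Dixon's test, and chance flags about 1 in 20 independent groups. These groups share cells, since a pool sums its 2 libraries and Siglecf cells are part of the neutrophil gate. The 13 flags are therefore not independent, and no excess over chance is shown. The cause of each was not tested.

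Most of these values lay in 3 pools. In Anti-PD-1, Cxcr2 in whole-tumor neutrophils was 451 CPM (next 355), and in Siglecf neutrophils it was 408 CPM in whole tumor (next 271.5) and 218 CPM in Percoll (next 168). In PancVAX + Anti-PD-1, Cxcl1 in tumor or epithelial cells was 134 CPM beside 23.3 in the next pool with PancVAX, and it stood apart in both preparations, at 108 CPM in whole tumor (next 32.8) and 142 CPM in Percoll (next 28.4). Cxcl5 in Percoll macrophages of that pool was 74.0 CPM (next 28.9), in the library with the most mixed cells. In Anti-PD-1 + Anti-CTLA-4, Cxcl3 in neutrophils was 902 CPM beside 466 in the next pool without PancVAX, with 951 CPM in its whole-tumor library (next 442), and Ppbp in Percoll macrophages was 40.7 CPM (next 19.6).

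In PancVAX + Anti-CTLA-4, Percoll macrophages had 2541 CPM of Cxcl2 (next 1658) and 61.5 CPM of Cxcl3 (next 32.6). In PancVAX, Cxcl3 in Percoll tumor or epithelial cells was 96.2 CPM (next 71.3).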

How the results depend on the processing

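With each pool left out, the log2 fold change of Cxcr2 between Siglecf and Retnlg neutrophils ranged from −1.61 to −1.42, and it was −1.49 without the replicate block. Outside T cells and the neutrophil subsets, the number of member calls by treatment was 1 in the form reported. It was 2 with a 5% mitochondrial limit, with a 500 UMI minimum, with 1 more marker and with whole-tumor libraries alone, 3 with 16 libraries or with library totals without TMM, 27 with no filter on low counts, and 0 with Percoll libraries alone. With 1 pool left out it was 1–8. Calls by preparation over the same gates were 8, and 13 with no filter on low counts, 7 without the replicate block and 6–9 with 1 pool left out. The share of all genes that passed is not given here for each setting. These counts therefore describe the settings and are no result about the members. Without the replicate block Cxcl1 in neutrophils lost its call (0.55, edgeR adjusted p = 0.074), as it did without PancVAX + Anti-PD-1 (0.58, adjusted p = 0.078). The highest gate exceeded the next for 3 members, and for 0 with a 5% mitochondrial limit, 1 more marker, whole-tumor libraries alone or Percoll libraries alone, where the smallest p the design allows (0.0078) adjusted to 0.0586 or more. For Cxcl5 the exact sign-flip p before adjustment also rose above that floor in 2 of these settings. It was 0.53 with 1 more marker (higher in 4 of 7 pools) and 0.0625 with Percoll libraries alone (7 of 8 pools). The correlation of neutrophil share with Cxcl2 was 0.764 without upper limits and 0.340 in T cells. Reversed signs were seen for Cxcl2 between neutrophil subsets (0.35 without upper limits, 0.27 with library totals), for Cxcl1 there (0.78 with DESeq2, 0.43 without upper limits, 0.34 with library totals, −0.45 to 0.45 with 1 pool left out) and for Cxcl5 in macrophages with PancVAX (−0.056 without upper limits). The cause was not tested. Mast cells had 1 pool and could not be fitted. Few UMIs limit Ppbp, and few cells limit the stromal, monocyte and endothelial gates.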

Other observations

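Over 91 profiles of 13 gates by pool and 14552 genes, the genes most like each member were listed by Pearson's r of log2(CPM + 1), as a description of values that share libraries and gates. Cxcr2 was most like Amer2 (0.981), Mrgpra2b (0.975), Retnlg (0.972), Olfr460 (0.970) and Gfi1b (0.970). Cxcl2 was most like Clec4d (0.899), the complement receptor gene C5ar1 (0.896) and Cd300ld (0.894), and Cxcl3 like Prdx5 (0.856), Slpi (0.835) and Cebpb (0.828). Cxcl5 was most like Syt8 (0.906), Rhox5 (0.897) and Hoxc6 (0.896), and Cxcl1 like Plau (0.742), the complement gene C3 (0.740) and Thbs1 (0.734). Ppbp was most like Tlr8 (0.788), the platelet chemokine gene Pf4 (0.779) and Ccl24 (0.773).

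Among upstream cytokines, Il1b was at 11544 CPM in neutrophils and 2121 CPM in macrophages, Il17a at 13.8 CPM in T cells, and Csf3, the gene of G-CSF, at 8.60 CPM in neutrophils. Its receptor gene Csf3r was at 1027 CPM in Retnlg and 688 CPM in Siglecf neutrophils. Cxcl15, another ligand-type chemokine, was at 124 CPM in tumor or epithelial cells and 59.4 CPM in stromal cells.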
